A study of Homo sapiens with 6 samples.

Results

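Wnt signalling was read at 10 genes of the 40448 listed in each library: the ligand genes WNT10A, WNT7B and WNT5A, the secreted inhibitor gene DKK1, the beta-catenin gene CTNNB1, the feedback target AXIN2, and the TCF/LEF transcription factor genes TCF7, TCF7L1, TCF7L2 and LEF1. They were chosen by name, through the RefSeq symbol of their Entrez ID, with earlier results of these data known. The libraries came from KYSE150, a human cell line established from a squamous cell carcinoma of the oesophagus. The 3 NCCRP1 clones (numbers 1, 6 and 17) were stably transfected with a vector that expresses human NCCRP1, a gene of the F-box-associated family. The 3 mock clones (numbers 1, 4 and 5) were stably transfected with the pIRES2-EGFP vector alone. Each clone gave 1 library of total RNA depleted of ribosomal RNA, so a difference between groups includes whatever set single clones apart. The p-values speak only of the spread among 6 libraries. Values of single clones are given in the order 1, 6, 17 for NCCRP1 and 1, 4, 5 for mock.

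In canonical Wnt signalling, a secreted Wnt ligand binds a Frizzled receptor and an LRP co-receptor, and beta-catenin, otherwise degraded by a complex built on AXIN and APC, accumulates. Beta-catenin has no DNA-binding domain of its own and acts in the nucleus through TCF/LEF proteins, which bind DNA and repress the same genes with TLE proteins when beta-catenin is absent. In stratified epithelia such as the oesophageal lining, the pathway is known for its role in the basal cells that renew the tissue.

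The 6 libraries held 12477 to 12821 genes above 0. NCCRP1 itself was at log2 RPKM 6.19, 8.07 and 6.71 in the NCCRP1 clones and listed at 0 in all 3 mock clones, as the labels have it. RPKM counts reads per kilobase of transcript, scaled to the depth of the library. The deposited values were its log2, with 0 in place of anything under 1 RPKM or of a missing estimate. The reads behind that scale, read from the whole-read steps of microRNA genes, came to 18070000, 15860000 and 14570000 in the NCCRP1 clones and to 12290000, 12690000 and 15960000 in the mock clones. Of 8 squamous epithelial markers, SOX2 was listed at 0 in NCCRP1 clone 6 and the other 7 were above 0 in every library. Their summed level, mostly KRT5 (log2 difference 0.04), was 1010 to 2128 RPKM in NCCRP1 and 1319 to 1801 RPKM in mock clones. Of the 8 markers, 0 passed limma's adjusted test and 2 had an unadjusted limma p under 0.05, both lower in the NCCRP1 clones. Of all tested genes, 3.79% were lower at that unadjusted level. For 1 of the 8 the groups did not overlap, with NCCRP1 lower, beside 7.05% of all tested genes. The basal keratin KRT15 was at log2 RPKM 7.16, 5.75 and 7.30 in the NCCRP1 clones, against 7.90, 7.69 and 8.90 in the mock clones, without overlap (log2 difference -1.43, limma adjusted p = 0.54). KRT14, another basal keratin, was at 2.23, 1.89 and 1.11 in the NCCRP1 clones, against 4.22, 3.71 and 1.995 in the mock clones, where mock clone 5 lay within the NCCRP1 range (log2 difference -1.57, limma adjusted p = 0.631). SOX2, a factor of squamous cells, was at 1.81, 0 and 2.65 in the NCCRP1 clones, against 2.83, 2.20 and 3.03 in the mock clones (limma adjusted p = 0.791). Most markers of cells other than squamous epithelium were listed at 0 in every library, namely 5 of 6 for fibroblasts, 4 of 6 for endothelium and 5 of 6 for leukocytes. The summed fibroblast markers lay at 2.49 to 5.62 RPKM in NCCRP1 and 3.50 to 5.96 RPKM in mock clones, and the endothelial ones at 7.33 to 10.99 RPKM in NCCRP1 and 7.49 to 10.5 RPKM in mock clones. The leukocyte sum, all of it CSF1R, was 3.98 to 4.18 RPKM in NCCRP1 and 4.34 to 5.38 RPKM in mock clones. The part of these marker differences in the results was not tested.

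Of the 10 genes, 7 were above 0 in all 6 libraries and were tested; none of the 7 rose or fell in the NCCRP1 clones by limma with Benjamini-Hochberg adjustment over all 12737 genes tested, where 0.102% of genes passed at an adjusted p under 0.05 (0.0707% higher and 0.0314% lower). At an unadjusted limma p under 0.05, 1 of the 7 was lower (TCF7) and 0 were higher, against 7.33% of all tested genes in either direction. Their median log2 difference was -0.15, beside -0.02 over all tested genes. WNT5A, LEF1 and AXIN2 were listed at 0 in all 6 libraries and had no test.

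TCF7 encodes TCF-1, a DNA-binding partner of beta-catenin best known from T-cell development, and it showed the largest difference of the 7 tested genes. Log2 RPKM was 0.44, 0.49 and 0.93 in the NCCRP1 clones, against 1.26, 1.62 and 1.70 in the mock clones. All 3 NCCRP1 clones lay below all 3 mock clones, with clone 17 nearest to them. KRT15 was apart in the same direction, as given above. In bulk RNA, fewer cells with TCF7 RNA and less TCF7 RNA in each cell cannot be told apart. TCF7L2 separated in the same direction, so the groups did not overlap for 2 of the 7 genes; over all tested genes 12.8% showed no overlap, 7.05% with NCCRP1 lower and 5.71% with NCCRP1 higher. The TCF7 mean was 0.62 ± 0.27 in NCCRP1 and 1.53 ± 0.23 in mock clones (SD, n = 3 each), a log2 difference of -0.91 (SE 0.23, 95% interval -1.42 to -0.40), or 0.533 times the mock level. The unadjusted limma p of 0.0024 ranked 111 of 12737 and did not pass adjustment (limma adjusted p = 0.276). An exact two-sided permutation test of the 6 values gave p = 0.1, the smallest that 3 against 3 allows. Each library carries a number in the deposited data, 15 or 14, called its run here. The labels do not say what that number stands for. The TCF7 difference was -1.002 within run 15 (NCCRP1 clone 1 against mock clones 1 and 4) and -0.99 within run 14 (NCCRP1 clones 6 and 17 against mock clone 5). About 119 to 277 reads lay behind each TCF7 value, by the depths above and the longest annotated transcript, which puts the counting SD at 0.09 to 0.13 on the log2 scale.

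**Figure D1:**
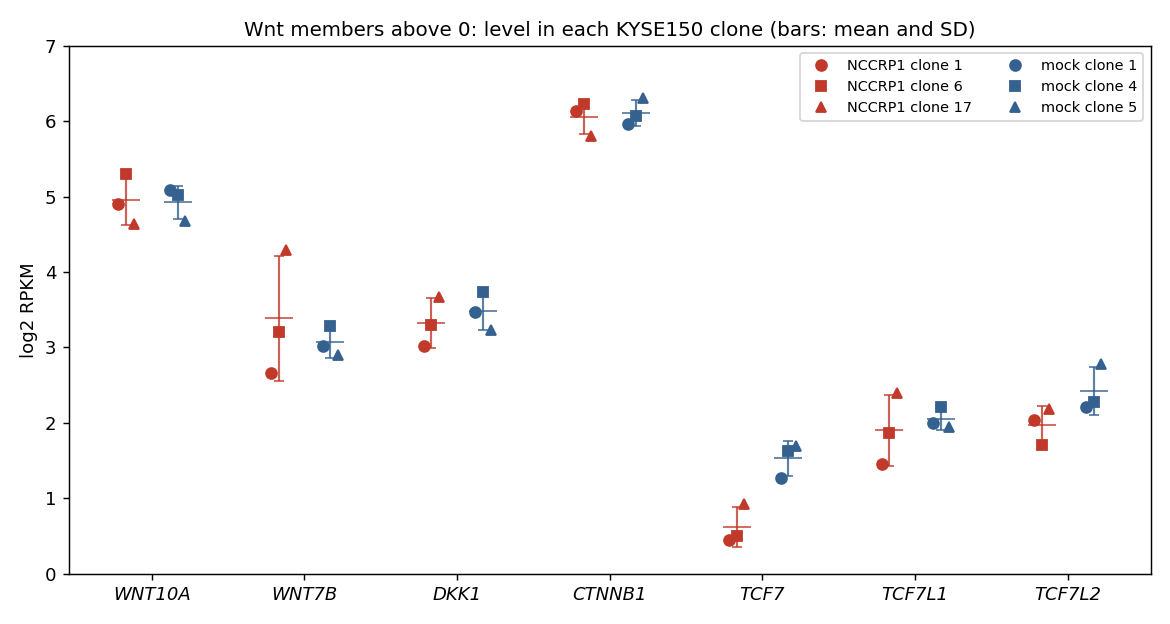
Log2 RPKM (vertical axis) of the 7 genes above 0 in every library, in NCCRP1 clones (red, left of each pair) and mock clones (blue, right); points are single clones, and horizontal marks with bars are the mean and SD of 3 clones. TCF7 is at 0.44 to 0.93 in NCCRP1 clones and 1.26 to 1.70 in mock clones, and WNT7B in NCCRP1 clone 17 stands at 4.29, above the other 5 clones.

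The deposited value of TCF7 covers the whole gene, and RefSeq gives 2 start windows for it on chromosome 5, both on the plus strand. Short TCF-1 proteins that lack the beta-catenin-binding N terminus are made from an internal start, and expression from the separate starts cannot be told apart here. Both windows are printed with that of DKK1, an established target of beta-catenin and TCF, because these are the TCF gene that differed most and a target gene of the pathway measured beside it. Each runs from 250 bases before to 50 bases after a start in the RefSeq GRCh38.p14 table, not the hg19 build of the deposited values. Capitals mark matches, on either strand, to the TCF/LEF core, searched as CTTTG with A or T at each of the next 2 bases.
TCF7, GRCh38.p14 chr5:134115363-134115662, plus strand: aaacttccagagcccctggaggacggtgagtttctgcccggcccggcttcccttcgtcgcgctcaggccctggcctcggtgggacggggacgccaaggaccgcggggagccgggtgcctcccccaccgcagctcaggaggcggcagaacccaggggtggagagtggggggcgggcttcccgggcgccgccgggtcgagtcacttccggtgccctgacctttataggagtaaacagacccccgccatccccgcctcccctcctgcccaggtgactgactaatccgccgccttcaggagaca
TCF7, GRCh38.p14 chr5:134123368-134123667, plus strand: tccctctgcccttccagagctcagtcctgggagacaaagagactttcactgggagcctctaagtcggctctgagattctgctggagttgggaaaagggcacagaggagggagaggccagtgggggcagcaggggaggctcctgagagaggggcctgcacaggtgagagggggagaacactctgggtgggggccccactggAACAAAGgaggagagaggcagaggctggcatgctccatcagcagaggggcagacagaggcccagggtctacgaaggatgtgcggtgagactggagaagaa
DKK1, GRCh38.p14 chr10:52314031-52314330, plus strand: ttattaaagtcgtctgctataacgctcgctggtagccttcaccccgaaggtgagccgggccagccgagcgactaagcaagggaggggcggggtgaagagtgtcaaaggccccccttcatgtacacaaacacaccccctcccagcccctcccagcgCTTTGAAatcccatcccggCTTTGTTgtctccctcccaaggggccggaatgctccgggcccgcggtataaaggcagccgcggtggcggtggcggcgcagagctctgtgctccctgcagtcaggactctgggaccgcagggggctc

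The upstream TCF7 window held no match, and the downstream one held 1, on the reverse strand, starting 50 bases before the start. The DKK1 window held 2 matches on the forward strand, which begin 95 and 76 bases before the start and do not overlap each other. Of 35116 windows of 300 bases in the table, 13.8% held at least 1 match and 1.58% at least 2. By symbol, 8 of the 10 genes matched windows, 12 in all; AXIN2 and WNT7B did not match. Besides those of TCF7 and DKK1, 1 window of TCF7L2 held a match. A match is a run of letters and no evidence of binding.

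TCF7L2 encodes TCF4, the main TCF of intestinal epithelium, and TCF7L1 encodes TCF3, known in mouse skin mostly as a repressor in stem cells. TCF7L2 was at log2 RPKM 2.04, 1.70 and 2.19 in the NCCRP1 clones, against 2.21, 2.27 and 2.78 in the mock clones. The groups were separated by only the small gap between NCCRP1 clone 17 and mock clone 1. The log2 difference was -0.44 (SE 0.22, 95% interval -0.93 to 0.04, limma adjusted p = 0.714). It was -0.20 within run 15 and -0.84 within run 14, and -0.26 without mock clone 5, the highest of the 6. TCF7L1 was at 1.45, 1.86 and 2.40 in the NCCRP1 clones, against 2.003, 2.21 and 1.94 in the mock clones. The NCCRP1 clones spanned the mock clones on both sides, with a log2 difference of -0.15 (SE 0.25, 95% interval -0.69 to 0.39, limma adjusted p = 0.966). Without NCCRP1 clone 1 that difference was 0.07. LEF1, the fourth family member and itself a Wnt target in many tissues, was listed at 0 throughout.

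Since RPKM is per length, the 3 detected factors could be added. Their summed level was 8.21, 8.30 and 11.7 RPKM in the NCCRP1 clones, against 11.04, 12.55 and 13.98 RPKM in the mock clones, with LEF1 counted as 0. NCCRP1 clone 17 lay above mock clone 1, so the groups overlapped. The mean log2 of the sum was 3.21 ± 0.29 in NCCRP1 and 3.64 ± 0.17 in mock clones (SD, n = 3 each), a difference of -0.43 (exact two-sided permutation p = 0.2).

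The share of TCF7 in this sum, with LEF1 counted as 0, separated the groups. This share is computed from the TCF7 values that were already apart, so it is no independent result. It was 16.5%, 17.0% and 16.3% in the NCCRP1 clones, against 21.7%, 24.5% and 23.2% in the mock clones. The NCCRP1 clones lay close together and all below the mock clones. The counting SD of TCF7 in the NCCRP1 clones was 0.12 to 0.13 on the log2 scale, so their closeness is finer than counting can resolve. The mean share was 16.6% ± 0.35 in NCCRP1 and 23.2% ± 1.40 in mock clones (SD, n = 3 each), a difference of -6.59 percentage points (exact two-sided permutation p = 0.1, the smallest possible). The difference was -6.62 points within run 15 and -6.61 within run 14, each with a single clone in 1 group. This split by run was chosen for the share after seeing the data. Such a share is taken within a library and does not depend on how libraries are scaled to each other. The shares of TCF7L1 (40.7% ± 6.40 in NCCRP1 and 33.6% ± 5.28 in mock clones) and TCF7L2 (42.7% ± 6.43 and 43.2% ± 5.50 in the same order) overlapped between the groups, with exact permutation p of 0.3 and 1. The log2 ratio of TCF7 to TCF7L2 was -1.60, -1.21 and -1.26 in the NCCRP1 clones, against -0.95, -0.65 and -1.08 in the mock clones. TCF7 was the lowest of the 3 factors in every library.

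**Figure D2:**
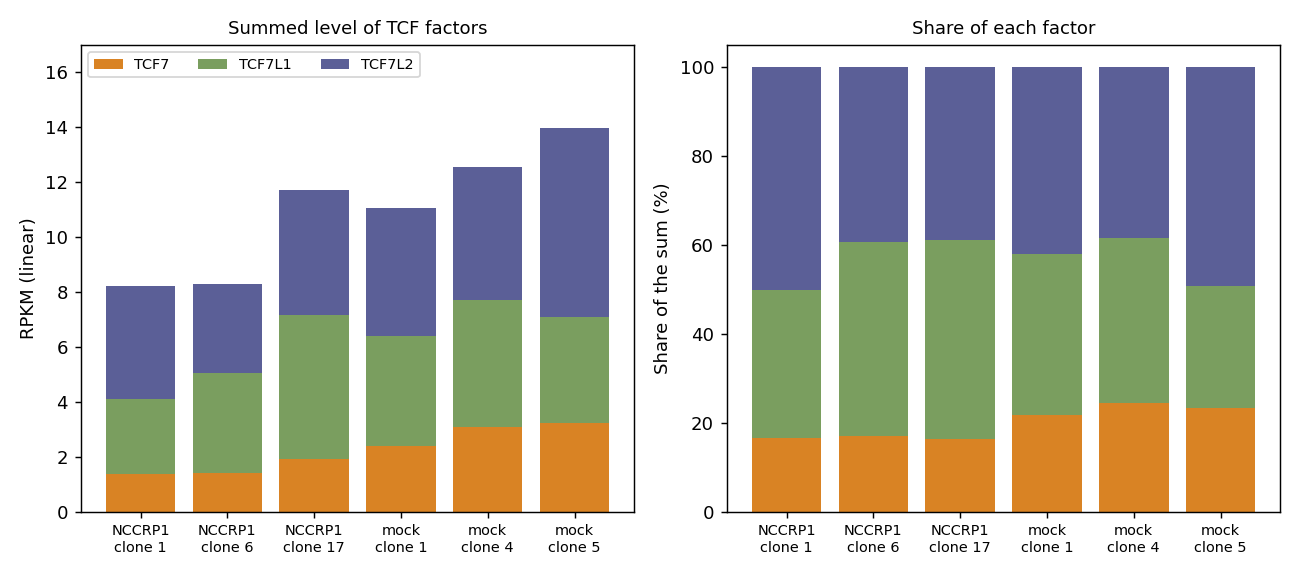
Left, summed linear RPKM of TCF7, TCF7L1 and TCF7L2 in each clone (3 NCCRP1 clones, then 3 mock clones); right, the share of each factor in that sum, in percent. TCF7 takes 16.3% to 17.0% in NCCRP1 clones and 21.7% to 24.5% in mock clones, while the total in NCCRP1 clone 17 lies within the range of the mock clones. LEF1 is listed at 0 and not drawn.

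Among the ligands, WNT10A, which is known from skin appendage and tooth development, had the highest level of the 10 WNT genes above 0 in every library. Its log2 RPKM was 4.91, 5.30 and 4.64 in the NCCRP1 clones, against 5.09, 5.02 and 4.67 in the mock clones. The NCCRP1 clones held both the highest and the lowest value, and the log2 difference was 0.02 (SE 0.19, 95% interval -0.39 to 0.44, limma adjusted p = 0.997). Leaving out mock clone 5 gave -0.10, and leaving out NCCRP1 clone 6 gave -0.15.

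WNT7B, a ligand of canonical signalling in several epithelia, was at 2.67, 3.20 and 4.29 in the NCCRP1 clones, against 3.02, 3.29 and 2.89 in the mock clones. NCCRP1 clone 17 stood above all other clones and clone 1 below all of them. The NCCRP1 mean was 3.39 ± 0.83 and the mock mean 3.07 ± 0.20 (SD, n = 3 each), with a log2 difference of 0.32 (SE 0.36, 95% interval -0.50 to 1.14, limma adjusted p = 0.946). Without NCCRP1 clone 17 the difference was -0.13. WNT7B values rested on about 390 to 1120 reads, a counting SD of 0.04 to 0.07, and the 30 nearest expressed genes of chromosome 22 deviated by a median of 0.06 in clone 17, where WNT7B deviated by 1.07 from its mean of the 6 libraries.

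In every library, 10 of the 19 WNT genes were above 0. The others were listed at 0, which can be a missing estimate, and added nothing to the sum. The summed level of the 10 was 85.0, 102.0 and 89.3 RPKM in the NCCRP1 clones, against 90.2, 91.5 and 67.8 RPKM in the mock clones (exact two-sided permutation p = 0.6). WNT10A supplied 35.3%, 38.6% and 28.0% of it in the NCCRP1 clones, against 37.7%, 35.4% and 37.6% in the mock clones. WNT7B supplied 21.98% in NCCRP1 clone 17 and 7.48% to 10.97% in the other 5 clones. WNT5A, the best known ligand of beta-catenin-independent signalling, was listed at 0 in all 6 libraries, which gives no comparison with other genes. Its close relative WNT5B was at 2.42, 2.76 and 1.91 in the NCCRP1 clones and at 2.06, 2.45 and 1.65 in the mock clones.

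DKK1 binds the LRP co-receptors and blocks canonical signalling. Its log2 RPKM was 3.02, 3.30 and 3.67 in the NCCRP1 clones, against 3.47, 3.74 and 3.24 in the mock clones. The groups overlapped, with a log2 difference of -0.15 (SE 0.20, 95% interval -0.60 to 0.29, limma adjusted p = 0.953) that was -0.59 within run 15 and 0.25 within run 14. Without NCCRP1 clone 1 it was 0.003.

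CTNNB1, which encodes beta-catenin, a protein of both the adherens junction and the Wnt pathway, was at 6.14, 6.23 and 5.81 in the NCCRP1 clones, against 5.96, 6.07 and 6.30 in the mock clones. The lowest value was that of NCCRP1 clone 17 and the highest that of mock clone 5. The log2 difference was -0.05 (SE 0.16, 95% interval -0.41 to 0.30, limma adjusted p = 0.989), so a change in CTNNB1 RNA larger than 0.41 in either direction lay outside the interval. Leaving out NCCRP1 clone 17 gave 0.07, and leaving out mock clone 5 gave 0.04. These are RNA levels, and the pathway acts on beta-catenin protein, which was not measured.

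AXIN2, a negative regulator of the pathway and the most widely used readout of its activity, was listed at 0 in all 6 libraries. A listed 0 stands for less than 1 RPKM or for a missing estimate: TPT1 and UBB, which every cell uses, were also at 0 in 6 libraries. The zeros of AXIN2, LEF1 and WNT5A therefore give neither an absence nor a comparison.

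By mean level over the 6 libraries, CTNNB1 (log2 RPKM 6.09 ± 0.18) came first, followed by WNT10A (4.94 ± 0.25), DKK1 (3.41 ± 0.28), WNT7B (3.23 ± 0.57), TCF7L2 (2.20 ± 0.35), TCF7L1 (1.98 ± 0.32) and TCF7 (1.07 ± 0.55; SD, n = 6). DKK1 exceeded WNT7B in 5 of 6 libraries and TCF7L2 exceeded TCF7L1 in 4 of 6, and the mean gaps of 0.18 and 0.22 were smaller than the SDs. Every other gene exceeded the next in all 6 libraries.

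TCF7L2 and DKK1 both lie on chromosome 10, and in NCCRP1 clone 6 their neighbours were low. The median deviation of the 30 nearest expressed genes from their 6-library means was -0.49 around TCF7L2 and -0.35 around DKK1 in that clone. TCF7L2 itself deviated by -0.50 there and DKK1 by -0.11. In mock clone 5 the neighbours of TCF7L2 stood at 0.29 and TCF7L2 at 0.58. With the neighbours' shift subtracted in each library, the TCF7L2 difference was -0.23 (SE 0.16, limma adjusted p = 0.791) in place of -0.44. TCF7 on chromosome 5 had neighbours whose median deviation ran from -0.10 to 0.09 over the libraries, and its difference with their shift subtracted was -0.97 (SE 0.21, limma adjusted p = 0.191).

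**Figure D3:**
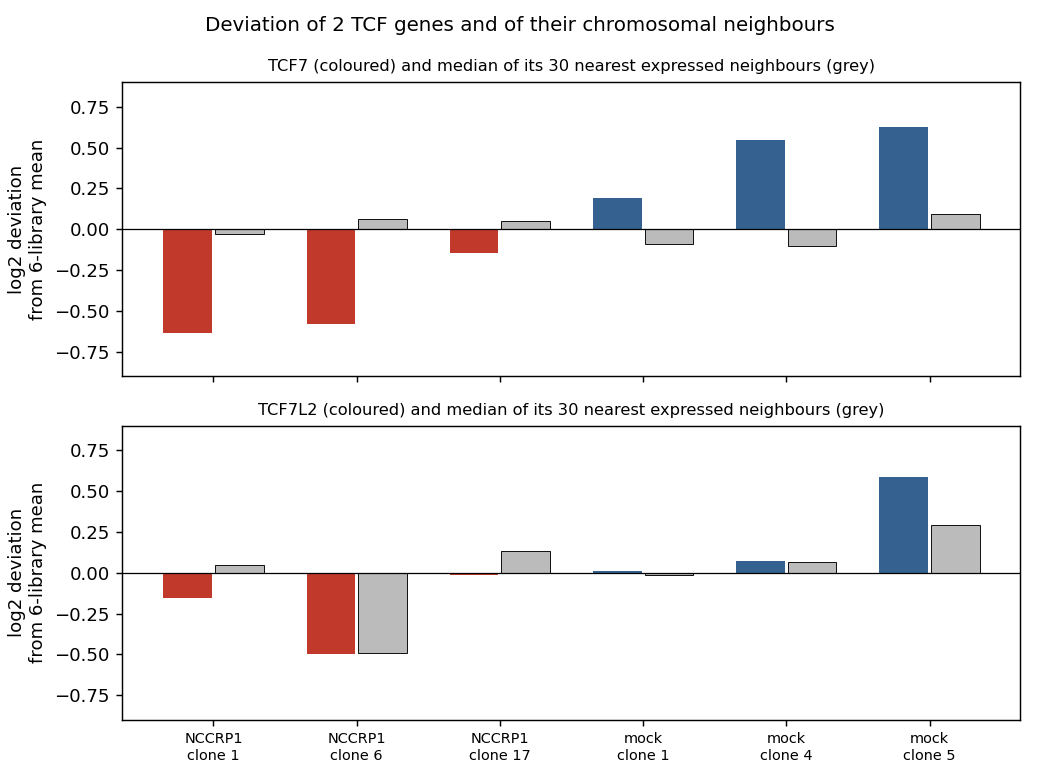
Deviation of log2 RPKM from the 6-library mean for TCF7 (top) and TCF7L2 (bottom) in NCCRP1 clones (red) and mock clones (blue), with the median deviation of the 30 nearest expressed genes of the same chromosome in grey. In NCCRP1 clone 6, TCF7L2 (-0.50) and its neighbours (-0.49) are about equally low, whereas the neighbours of TCF7 lie between -0.10 and 0.09.

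The genes whose profile over the 6 libraries was nearest to that of TCF7 were sought among 11926 genes above 0 in every library, by the root-mean-square distance of the centred log2 values. They were TINCR, a gene of epidermal differentiation (distance 0.11), LRP1, an endocytic receptor (0.16), SPDYE2 (0.17), the alkaline phosphatase gene ALPG (0.18) and ERV3-1 (0.18). The root-mean-square of TCF7 around its own mean was 0.50. TINCR was at 1.76, 1.84 and 2.15 in the NCCRP1 clones, against 2.83, 2.85 and 3.06 in the mock clones. These 5 were picked for this pattern, so their lower NCCRP1 values are a description. None of the 5 passed limma's test (limma adjusted p of 0.0976 to 0.479). SPDYE2 and ALPG have near-identical relatives and their values are uncertain for that reason.

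The rest of the pathway was followed in a list of 101 further genes, of which 64 were tested. By limma with adjustment over all tested genes, 0 of the 64 rose and 0 fell (lowest limma adjusted p = 0.451). At an unadjusted limma p under 0.05, 3 were higher and 3 lower, beside 3.54% higher and 3.79% lower of all tested genes. The median log2 difference of the 64 was -0.05. For 9 of the 64, or 14.1%, the groups were apart, 5 with NCCRP1 higher and 4 with NCCRP1 lower, near the 12.8% of all tested genes. Of the 5 higher ones, the receptor gene FZD4 and the inhibitor gene NKD1 were listed at 0 in every mock clone and were tested only because the NCCRP1 clones were above 0.

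Among 11 tested genes of ligands and their release, 8 averaged higher in the NCCRP1 clones (median log2 difference 0.14), and 0 had an unadjusted limma p under 0.05. Of all 12737 tested genes, 5950 averaged higher and 6787 lower. WLS, which escorts Wnt proteins to the cell surface, was at 5.94 ± 0.19 in NCCRP1 and 5.69 ± 0.14 in mock clones (SD, n = 3 each; limma adjusted p = 0.81). WNT7A and WNT5B had log2 differences of 0.27 and 0.31 (limma adjusted p of 0.864 and 0.904). These values moved when single clones were left out: WNT5B was 0.11 without mock clone 5 or NCCRP1 clone 6, 0.51 without mock clone 4 and 0.54 without NCCRP1 clone 17. WNT7A was 0.14 without mock clone 5 or NCCRP1 clone 6, and WLS was 0.16 without NCCRP1 clone 6, against 0.25 with all 6 clones. Within runs 15 and 14 the differences were 0.17 and 0.68 for WNT5B, 0.13 and 0.55 for WNT7A and 0.34 and 0.10 for WLS.

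Of 12 tested receptor genes, the Frizzled receptor gene FZD1 had the lowest p. It was at 1.00, 0.87 and 1.11 in the NCCRP1 clones, against 2.14, 1.12 and 1.92 in the mock clones, a log2 difference of -0.73 (SE 0.27, limma adjusted p = 0.543). The groups did not overlap, but mock clone 4 lay next to NCCRP1 clone 17. The FZD1 difference was -0.52 without mock clone 1, -1.035 without mock clone 4 and -0.575 with the neighbours' shift subtracted. FZD4 was at 0.15, 0.33 and 0.64 in the NCCRP1 clones and listed at 0 in the mock clones (limma adjusted p = 0.783). The co-receptor gene LRP5 had a log2 difference of 0.21 (limma adjusted p = 0.852), which was 0.078 with the shift of its 30 nearest expressed neighbours subtracted, 0.14 without mock clone 4 and 0.33 without mock clone 1. It was 0.098 within run 15 and 0.33 within run 14.

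Of 17 genes of secreted and membrane inhibitors, 11 were listed at 0 throughout, among them SFRP1 and WIF1, and 6 were tested. KREMEN2, a receptor for DKK proteins, was at 2.84, 2.73 and 2.78 in the NCCRP1 clones, against 3.42, 3.48 and 2.82 in the mock clones. Mock clone 5 lay within the NCCRP1 range, and the log2 difference was -0.46 (SE 0.20, limma adjusted p = 0.632), at -0.61 within run 15 and -0.072 within run 14. The ubiquitin ligase genes ZNRF3 and RNF43, whose products remove Frizzled receptors from the membrane, had log2 differences of -0.14 and -0.11 (limma adjusted p of 0.962 and 0.968). ZNRF3 was at -0.018 without mock clone 1, and RNF43 at -0.031 without NCCRP1 clone 1, -0.056 without mock clone 5, -0.067 without NCCRP1 clone 17, -0.18 without mock clone 4 and -0.22 without NCCRP1 clone 6.

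In the destruction complex and cytoplasmic group 18 genes were tested. Beside 6787 of all 12737 tested genes, 12 of these 18 averaged lower in the NCCRP1 clones (median log2 difference -0.06). APC2, a relative of the tumour suppressor APC, alone had an unadjusted limma p under 0.05, at 2.34, 2.31 and 2.27 in the NCCRP1 clones, against 1.84, 1.90 and 1.42 in the mock clones (log2 difference 0.59, SE 0.20, limma adjusted p = 0.462). DVL2 and CTNNBIP1, which encode a Dishevelled protein and an inhibitor of beta-catenin, had log2 differences of -0.19 and -0.16 (limma adjusted p of 0.869 and 0.912). DVL2 was at -0.105 without mock clone 1, and CTNNBIP1 at -0.089 without NCCRP1 clone 17 and -0.24 without NCCRP1 clone 6.

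Among 11 tested nuclear co-factors, TLE5, a short TLE protein without the repressor's C-terminal part, was at 7.88, 8.02 and 7.83 in the NCCRP1 clones, against 7.57, 7.45 and 7.26 in the mock clones. The groups did not overlap, with a log2 difference of 0.48 (SE 0.16, limma adjusted p = 0.462). APC2 and TLE5 both lie on chromosome 19, and the neighbours of each were higher in the NCCRP1 clones, by 0.47 and 0.53. With those shifts subtracted the differences were 0.12 for APC2 and -0.05 for TLE5. CREBBP and EP300, the acetyltransferase co-activators that bind beta-catenin, had log2 differences of -0.31 and -0.27 (limma adjusted p of 0.672 and 0.824), and the groups overlapped for neither gene. EP300 was separated only by the small gap between NCCRP1 clone 6 (2.977) and mock clone 4 (2.979), and its difference was -0.15 without NCCRP1 clone 1. Of the 11 co-factors, 36.4% showed no overlap, 1 with NCCRP1 higher and 3 lower, beside 12.8% of all tested genes. CTBP2 on chromosome 10 was the other lower one. In NCCRP1 clone 6, CTBP2 deviated by -0.42 and its 30 nearest expressed genes by a median of -0.46.

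Of 6 tested target genes, the cyclin D1 gene CCND1 had the lowest p of the further pathway genes, at 5.12, 5.94 and 5.49 in the NCCRP1 clones, against 4.88, 4.98 and 4.94 in the mock clones (log2 difference 0.59, SE 0.19, limma adjusted p = 0.451). All 3 NCCRP1 clones lay above the mock clones, with clone 6 highest. Without NCCRP1 clone 6 the CCND1 difference was 0.38, and by run it came to 0.19 in run 15 and 0.78 in run 14. The transcription factor gene SOX9 and the ephrin receptor gene EPHB3 had log2 differences of 0.49 and -0.42 (limma adjusted p of 0.743 and 0.876). EPHB3 was at 1.43, 0.31 and 1.61 in the NCCRP1 clones, against 1.58, 1.64 and 1.38 in the mock clones, and without NCCRP1 clone 6 its difference was -0.010. SOX9 had a difference of 0.75 without mock clone 4, and 0.060 within run 15 beside 0.86 within run 14. SP5, ASCL2, PROX1 and TNFRSF19 were listed at 0 throughout, as AXIN2 was.

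**Figure D4:**
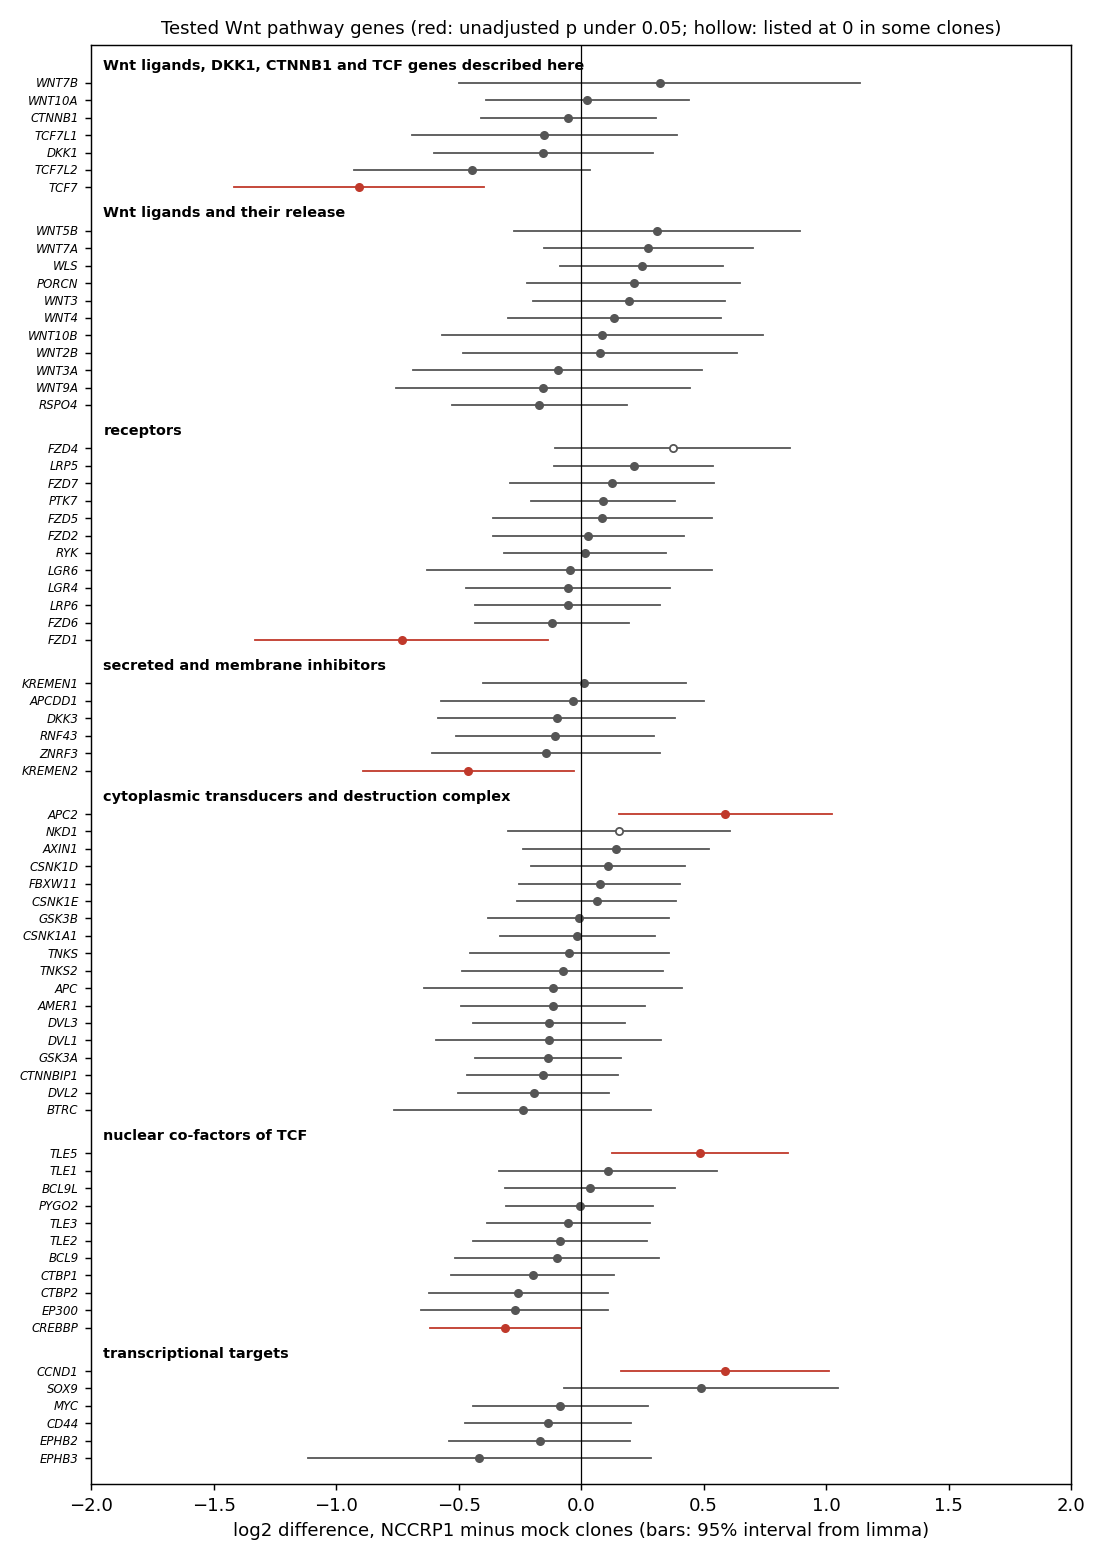
Log2 difference (NCCRP1 minus mock clones, horizontal axis) with its 95% interval from limma for each tested Wnt pathway gene, grouped by role; red marks an unadjusted p under 0.05, hollow points genes listed at 0 in some clones. Besides TCF7 (-0.91), FZD1, KREMEN2 and CREBBP are lower and APC2, TLE5 and CCND1 higher at that unadjusted level, and none passes adjustment over all genes.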

How the data were processed

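RNA was measured in 6 KYSE150 clones, 3 NCCRP1 and 3 mock. The authors' files hold, per the file headers, an RPKM column for 40448 Entrez IDs. The deposited values are log2 RPKM: as powers of 2, times the longest GENCODE v29 transcript in kilobases, they sum to 1130000 to 1150000 a library, and as natural logs to 11550000 or more. The submitters' processing notes name hg19 and bedtools 2.25.0 without roles; the aligner is not given in the sources used here. RefSeq (GRCh38.p14) gave symbols for 37997 IDs. Run numbers come from the deposited data, and the labels do not say what they stand for.

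Depth is the step, sought between 8000000 and 24000000 reads, that made most microRNA values whole. Of values under 8 steps, 23.4% to 33.1% lay within 0.005 of a whole read, against 1% by chance for a step not chosen to fit. Approximate reads rest on it and on transcript length, and counting SDs cover counting error only.

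The planned test, limma 3.58.1 in R 4.3.3 (trended, robust, two-sided, group alone), was run on genes above 0 in at least 3 libraries and tested on simulated data. Members, lists and tests were chosen with earlier results of these data known. From each list the text names up to 3 genes of lowest p, and genes nearest to the tested gene of lowest p. Neighbours are 30 protein-coding genes of mean log2 RPKM at least 2, in RefSeq order. Alternatives covered scale, filter, centring, empirical Bayes, run, listed zeros, neighbours and left-out clones.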

Additional observations from a re-analysis of the deposited data

How the results depend on the processing

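The count of 0 calls among the 7 tested Wnt ligand, DKK1, CTNNB1 and TCF genes, and of 0 among the further pathway genes, was the same under all 15 alternatives: 2 other log2 scales, 2 filters, median centring, robust=FALSE, run as a term, a listed 0 as missing, neighbour shift subtracted and 6 left-out clones. These alternatives called only 1 to 28 of all tested genes, so 0 calls among so few genes was likely from the outset. The TCF7 difference lay between -1.06 and -0.61 over the alternatives (limma adjusted p of 0.191 to 0.592), and between -1.06 and -0.82 with 1 clone left out. That of TCF7L2 lay between -0.55 and -0.23. For the further pathway genes named, these alternatives were added after seeing the data. With neighbour shifts subtracted, CTNNB1 (0.0033), DKK1 (0.0079) and TLE5 (-0.0465) changed sign; the cause was not tested. Leaving out 1 clone gave ranges that include a change of sign for TCF7L1 (-0.40 to 0.0748), CTNNB1 (-0.14 to 0.0723), WNT7B (-0.13 to 0.68), WNT10A (-0.15 to 0.18) and DKK1 (-0.33 to 0.0025). The difference in the log2 TCF sum was -0.41 with centred libraries, -0.52 within run 15, -0.50 within run 14 and -0.59 to -0.34 with 1 clone left out. The TCF7 share differed by -7.30 to -5.90 percentage points with 1 clone left out. These settings, and the split by run for the share, were chosen after seeing the data. No paired analysis was possible because the clone numbers of the groups have only 1 number in common, and nothing in the labels ties those clones. Values near 1 RPKM, such as those of TCF7, sit just above the level under which genes are listed as 0.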
